A study of Mus musculus with 4 samples.

Results

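Tightly clustered shared CTCF sites are CTCF peaks found in 2 parts of the embryonic mouse forebrain that have another such peak close by. A peak called in the medial ganglionic eminence (MGE) was kept as shared if it overlapped a peak called in the telencephalon by at least 1 bp, and shared peaks were selected on their spacing: at least 1 other shared peak on the same chromosome had its midpoint within 5 kb. On chromosomes 1 to 19 this rule chose 2671 of 14742 shared peaks (18.1%, 17.5 to 18.7%), or 10.7% of the 24888 MGE peaks there. The remaining 12071 shared peaks are called the other shared peaks. Sharing and spacing are therefore properties of the rule and are given as a description.

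The peaks come from CTCF chromatin immunoprecipitation and sequencing (ChIP-seq) of E13.5 mouse tissue. A pulldown and its input were sequenced once for the telencephalon and once for the MGE. The CTCF libraries were made with a rabbit antibody, and no genotype, strain or treatment beyond dissection is labelled for any sample. Telencephalon libraries were built with the NEB ChIP-Seq kit and MGE libraries with the NEBNext Ultra II kit, so tissue and kit cannot be told apart. The labels do not say whether the telencephalon sample included the MGE, which is a part of it. The MGE list held 25710 peaks (24888 on chromosomes 1 to 19) and the telencephalon list 31979 (31141). Each list gives positions alone, so sequencing depth is unknown, peak width is the one property measured per peak, and there is no library-level test: each value describes these libraries. Intervals are 95% intervals of counting error (exact Clopper-Pearson for shares, order statistics for medians). They treat peaks as independent, which neighbouring peaks are not, and are too narrow for that reason.

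CTCF is a zinc finger protein that reads a long asymmetric DNA motif and halts cohesin as it extrudes chromatin loops. The direction in which the motif lies matters for loop formation, and loop anchors often pair motifs that point towards each other. Groups of nearby CTCF sites are known at domain borders, at imprinted loci and beside antigen receptor and protocadherin gene clusters, and CTCF is required in neural progenitors and for the development of MGE-derived interneurons.

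The sequences under some of the clusters show the motif directly. No genome was used here, so bases were read where a member overlapped a RefSeq promoter window (GRCm38.p6, the coordinates of mm10; 300 bases, from 250 before to 50 after a gene start). In the lines that follow, read 5′ to 3′ on the strand of the named gene, capitals mark a match to the 12-letter CTCF core consensus with at most 1 mismatch on either strand. The first 3 lines are the distinct versions found in an array of interferon zeta genes, which holds the longest run of regularly spaced members and is described further on. The next 2 are from the widest cluster of 2 members, at Wif1, and from one of the closest pairs of members, at Nectin2. Palm marks the last member of a 5-member run on chromosome 10. Zfp786 and Zfp398 are neighbours whose matches point in different directions, and 2700038G22Rik and Gm42228 are neighbours whose matches point the same way. Rpl38 and Hbq1b are genes with a member at each end, and Gm33663 is a long noncoding RNA gene beside the imprinted gene Cdkn1c. The last 7 lines were chosen after their values had been seen.
Gm13272 (chr4:88779633-88779739, + strand): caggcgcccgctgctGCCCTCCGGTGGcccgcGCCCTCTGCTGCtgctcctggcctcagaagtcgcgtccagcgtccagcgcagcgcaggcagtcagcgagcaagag
Gm13283 (chr4:88760557-88760663, + strand): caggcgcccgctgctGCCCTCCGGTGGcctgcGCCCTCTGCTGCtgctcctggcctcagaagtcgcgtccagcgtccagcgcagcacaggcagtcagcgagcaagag
Gm13286 (chr4:88757594-88757700, + strand): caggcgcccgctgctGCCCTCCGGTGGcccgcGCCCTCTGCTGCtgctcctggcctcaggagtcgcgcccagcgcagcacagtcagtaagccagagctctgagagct
Wif1 (chr10:121033918-121033979, + strand): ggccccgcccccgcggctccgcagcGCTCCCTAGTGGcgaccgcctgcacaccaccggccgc
Nectin2 (chr7:19749706-19749767, - strand): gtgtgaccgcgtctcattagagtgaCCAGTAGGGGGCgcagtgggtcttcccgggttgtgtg
Palm (chr10:79793505-79793566, + strand): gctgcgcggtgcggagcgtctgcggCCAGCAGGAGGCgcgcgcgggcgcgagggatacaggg
Zfp786 (chr6:47830559-47830620, - strand): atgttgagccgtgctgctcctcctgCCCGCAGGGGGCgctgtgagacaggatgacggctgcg
Zfp398 (chr6:47835572-47835633, + strand): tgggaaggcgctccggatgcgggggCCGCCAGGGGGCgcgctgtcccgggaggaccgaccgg
2700038G22Rik (chr5:23850425-23850486, + strand): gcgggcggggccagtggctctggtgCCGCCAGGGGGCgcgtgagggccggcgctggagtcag
Gm42228 (chr5:23853017-23853078, - strand): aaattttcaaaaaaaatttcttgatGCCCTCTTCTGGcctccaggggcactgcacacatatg
Rpl38 (chr11:114668433-114668494, + strand): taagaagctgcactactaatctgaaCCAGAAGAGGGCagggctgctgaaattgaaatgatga
Hbq1b (chr11:32286909-32286970, + strand): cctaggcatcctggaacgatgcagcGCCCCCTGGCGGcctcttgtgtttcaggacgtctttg
Gm33663 (chr7:143466473-143466534, - strand): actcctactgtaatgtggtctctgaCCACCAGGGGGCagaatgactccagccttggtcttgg

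At least 100 bases of a promoter window were covered by 157 of 2606 members on the chromosomes with windows (6.02%) and by 722 of 11715 other shared peaks (6.16%). A core match lay in the covered bases of 76 of the 157 members (48.4%, 40.4 to 56.5%) and of 302 of the 722 other shared peaks (41.8%, 38.2 to 45.5%). The intervals overlap, and the difference of 6.58 percentage points (-2.03 to 15.2) includes 0. Without 4 runs described further on, the share of members was 46.4% (38.2 to 54.6%) and the difference 4.53 points (-4.2 to 13.3). These runs include the longer run of the interferon zeta array, whose bases, where read, are copies. Of all 31363 promoter windows 4.41% held a match, so both kinds of peak held the core far more often than promoters at large. Without a mismatch the shares were 14.6% and 12.3%, against 0.574% of all windows. The 7-letter core alone (AGGGGGC as one form, AGGTGGC as another, AGAGGGC as a further form and finally AGATGGC, on either strand, letters that also lie inside the longer core) was found in 65.6% and 63.2%, against 27.8% of windows. These shares speak for promoter-covered members only, and a window without a match says only that these letters are not in it.

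The 88 matches in members lay a median of 47.5 bp from the midpoint of the MGE peak, and those in other shared peaks 30 bp. Of the 88, 16 lie in near-identical copies of the interferon zeta array, and without these the median was 32.2 bp. The match printed for Zfp398 was 0.5 bp from the midpoint and that of Gm33663 6 bp, whereas that of Wif1 was 314 bp away in a peak of 1003 bp. On the strand of the gene lay 49 of the 88 matches (55.7%, 44.7 to 66.3%) and 210 of 324 in other shared peaks (64.8%, 59.3 to 70%). All 16 matches of the array lie on the strand opposite to the gene, and without them the share was 49 of 72 (68.1%, 56 to 78.6%), so its order against the other shared peaks turned. In 9 clusters at least 2 members were covered by promoter windows, and in 4 of them at least 2 members held a match. The matches pointed the same way in 3: both runs of the interferon zeta array and the pair at 2700038G22Rik and Gm42228. At Zfp786 and Zfp398, which encode zinc finger proteins, the match at the lower coordinate lay on the - strand and the other on the + strand, so that the cores pointed away from each other. Their peaks (chr6:47830386-47830915 and chr6:47835409-47835797) were 530 and 389 bp wide in the MGE list and 878 and 533 bp in the telencephalon list.

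Most clusters were pairs. Joining members whose neighbouring midpoints lay within 5 kb gave 1225 clusters, of which 1075 held 2 members (87.8%), 127 held 3 (10.4%) and 23 held 4 or more. Pairs accounted for 2150 of the 2671 members (80.5%). The larger clusters were 15 of 4 members, 4 of 5, 2 of 6, 1 of 12 and 1 of 36. By chromosome the clustered share was lowest on chromosome 16, at 11.9% (53 of 445 shared peaks, 9.05 to 15.3%, in 25 clusters). It was highest on chromosome 2, at 22% (252 of 1146, 19.6 to 24.5%, in 118 clusters). These are the extremes of the 19 chromosomes, picked after their values were seen. Members enter in groups of at least 2, so these intervals cannot show a difference between chromosomes.

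Members lay at all distances up to the limit, with few very close together. The 1446 distances between neighbouring midpoints ranged from 358 to 4996 bp, with a median of 2390 bp and quartiles of 1288 and 3648 bp. Of these, 26 were at most 500 bp (1.8%), 239 at most 1000 bp (16.5%) and 623 at most 2000 bp (43.1%). Facing edges were separated by at least 78 bp and by a median of 2032 bp. Separate peaks of at least 244 bp, the narrowest MGE width, cannot have midpoints closer than that. The telencephalon list, with a narrowest width of 150 bp, had 66 pairs at most 500 bp apart. Whether peak width or sonication (500 bp in the labels) produced the low count of very close pairs was not tested. For all 14723 pairs of neighbouring shared peaks the median distance was 60066 bp. Counts per 500 bp were highest between 500 and 1500 bp, with 213 and 214 pairs, and had reached 122 just inside the limit and 116 just outside it. The limit of 5 kb thus fell on a slope and not in a gap.

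**Figure D1:**
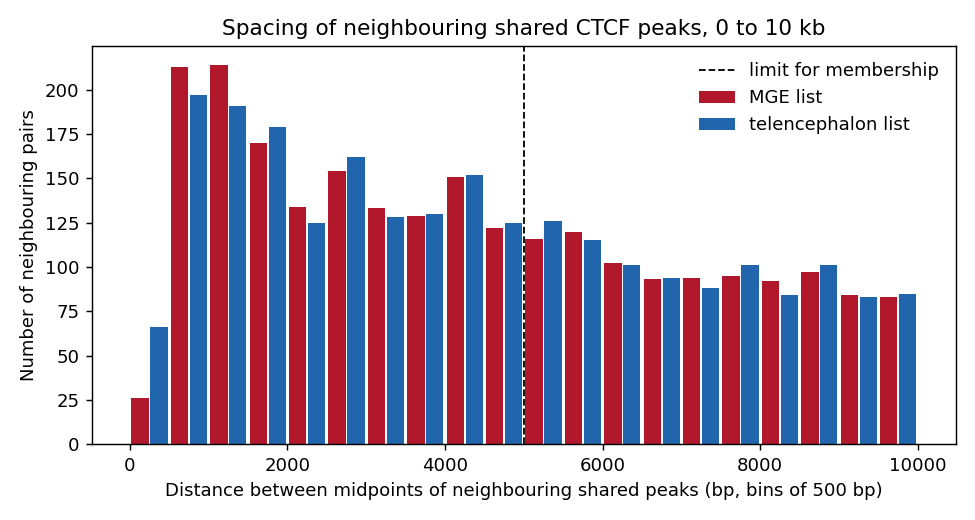
Distances between midpoints of neighbouring shared CTCF peaks in bins of 500 bp, with the number of pairs on the vertical axis, for the MGE list (red) and the telencephalon list (blue); the dashed line is the 5 kb limit. The MGE bars fall from 213 and 214 pairs between 500 and 1500 bp to 122 at the limit and 116 beyond it, and the first bin holds 26 MGE and 66 telencephalon pairs.

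Pairs on either side of the limit lay in or near genes. Just inside were pairs 4996 bp apart at Fstl3 (chr10:79774854-79775313 and chr10:79779815-79780344), 4995 bp inside Tbc1d30 (chr10:121326070-121326313 and chr10:121330916-121331457) and 4990 bp inside Wnt9b (chr11:103758733-103759121 and chr11:103763707-103764127). Just outside, and not members through one another, were pairs 5003 bp apart at Fcrl5 (chr3:87499186-87499915 and chr3:87504292-87504815), 5004 bp at Ano6 (chr15:95787612-95788022 and chr15:95792551-95793090) and 5007 bp at Mrpl23 (chr7:142532887-142533292 and chr7:142537893-142538300).

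Nearly all clusters were resolved as separate peaks in both tissues. A single telencephalon partner that overlapped no other MGE peak was found for 2540 of 2671 members (95.1%), against 12027 of 12071 other shared peaks (99.6%). The neighbours in 1389 of 1446 pairs had different partners (96.1%). For 114 members (4.27%) the telencephalon partner overlapped several MGE peaks. There were 57 such telencephalon peaks, and 42 clusters rested on a single one, so that the telencephalon list had no pair there. The rule applied in mirror image to the telencephalon list chose 2678 of 14751 shared telencephalon peaks (18.2%), including 2573 of the 2636 partners of members (97.6%). Partners overlap members by the rule, so partners of close members are mostly close too, and these shares follow largely from it.

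The closest pairs with separate partners had midpoints 420 to 519 bp apart in the MGE list, with 106 to 236 bp between facing edges. The closest lay inside Celf4, which encodes an RNA-binding protein of neurons (chr18:25639522-25639799 and chr18:25639959-25640202). Its peaks were 278 and 244 bp wide in the MGE list and 195 and 150 bp in the telencephalon list, where the midpoints were 453.5 bp apart. All 4 widths were small, and the 244 and 150 bp peaks had the narrowest widths of their lists.

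Gene ends held several of these pairs. At one end of Bsg, which encodes the surface glycoprotein basigin, peaks 470 bp apart (chr10:79712080-79712323 and chr10:79712529-79712814) were 244 and 286 bp wide in the MGE list and 295 and 323 bp in the telencephalon list. At Pmm1, a phosphomannomutase gene, peaks 469 bp apart (chr15:81960228-81960471 and chr15:81960697-81960940) were both 244 bp wide in the MGE list and 414 and 232 bp in the telencephalon list. Beside Nectin2, a cell adhesion gene, peaks 519 bp apart (chr7:19749571-19749970 and chr7:19750138-19750441) were 400 and 304 bp wide, with partners of 581 and 307 bp. The first of these holds the exact core match printed for Nectin2, 33 bp from its midpoint.

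The distance between the peaks of a close pair was similar in the tissues, with 2 exceptions. Since partners overlap by the rule, differences in distance were limited in advance. Inside Tmem178b the MGE peaks were 507 bp apart and their partners 839 bp. Inside Tmprss9, a serine protease gene, the distances were 509 and 726 bp, and one telencephalon partner was 707 bp wide against 268 bp in the MGE list. The other pairs lay inside Ralgapa2 (474 and 506 bp), inside Acbd6 (496 and 471.5 bp), at an end of Usb1 (502 and 492.5 bp) and in a long run on chromosome 9 (478 and 526.5 bp).

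Clustered peaks were slightly wider than other shared peaks in the MGE list and more clearly so in the telencephalon list. Median widths in the MGE list were 355 bp (351 to 360) for members and 344 bp (343 to 347) for other shared peaks. The partners of members with a single partner had a median of 380 bp (370 to 387), against 343 bp (340 to 345) for those of other shared peaks. Members at the narrowest MGE width, 244 bp, numbered 218 (8.16%), against 1151 other shared peaks (9.54%). Widths of 500 bp or more were found for 275 members (10.3%) and 969 others (8.03%). The median ratio of MGE to telencephalon width was 0.935 (0.92 to 0.955) for members and 0.997 (0.99 to 1.01) for the others. The MGE peak was the wider one in 1094 of 2540 member pairs (43.1%, 41.1 to 45%) and in 5954 of 12027 others (49.5%, 48.6 to 50.4%). Whether tissue, kit, depth or calling produced this tilt was not tested, and with 1 library per tissue they cannot be told apart.

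**Figure D2:**
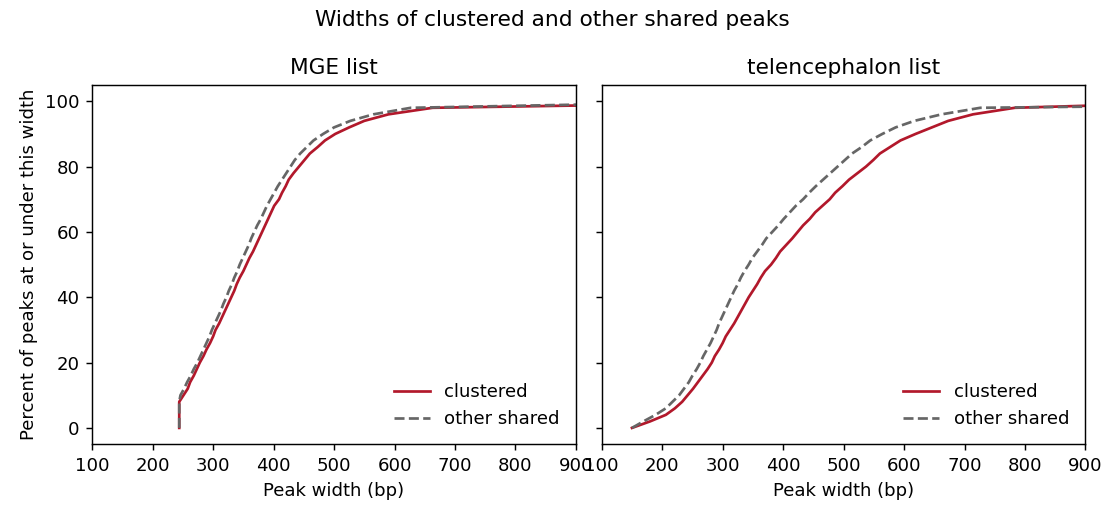
Cumulative percent of peaks (vertical axis) at or under each width in bp (horizontal axis) for clustered (red) and other shared (grey, dashed) peaks, in the MGE list on the left and among telencephalon partners on the right. The clustered curve lies a little to the right in the MGE list (medians 355 and 344 bp) and further to the right in the telencephalon list (380 and 343 bp).

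Widths hardly varied with the distance to the nearest member. In steps of 1000 bp, MGE medians were 349, 358, 352, 362 and 351 bp and telencephalon medians 379, 383, 374, 373 and 389 bp, with overlapping intervals. They did differ with cluster size: the MGE median was 353 bp in pairs, 352 bp in clusters of 3 and 402 bp (381 to 418) in clusters of 4 or more. Without 56 members in 4 runs on chromosomes 2, 4, 9 and 14, described further on, the median for 4 or more fell to 365 bp (328 to 385), whose interval includes that of pairs. The midpoints of a member and its partner were a median of 49.2 bp apart, and those of other shared peaks 46.5 bp.

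Among clusters of exactly 2 members, those with the largest summed MGE width included neighbours of very different width. They were picked on MGE width, so wide MGE peaks, also relative to their partners, are partly built into the choice. At Wif1, which encodes a secreted Wnt inhibitor, a peak of 454 bp (chr10:121031601-121032054) lay 1808 bp from one of 1003 bp (chr10:121033134-121034136), with telencephalon partners of 183 and 1084 bp. The peak nearer to Wif1, which reached over the gene start and had its midpoint 369 bp before it, was thus the wider one in both tissues. Inside Nxnl1, a thioredoxin-like gene known from photoreceptors, peaks of 391 and 1039 bp (chr8:71561376-71561766 and chr8:71562269-71563307) had partners of 338 and 581 bp. Inside Rab11fip3, an effector of Rab11 in membrane recycling, peaks of 529 and 871 bp (chr17:26009443-26009971 and chr17:26011713-26012583) had partners of 436 and 706 bp. These 3 pairs kept their order.

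At 2 further clusters of this kind the order changed. At Cdk9, the kinase that releases paused RNA polymerase, peaks of 653 and 737 bp (chr2:32708342-32708994 and chr2:32713163-32713899) had partners of 545 and 446 bp. At Rab23, a Rab gene that restrains Sonic hedgehog signalling, peaks of 720 and 618 bp (chr1:33739305-33740024 and chr1:33742610-33743227) had partners of 422 and 484 bp. In both, the widths of the neighbours differed little.

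Over all pairs of neighbouring members with single partners, the wider peak of the MGE list was the wider one in the telencephalon in 784 of 1325 untied pairs (59.2%, 56.5 to 61.8%). Among the 457 pairs that differed by at least 0.5 on the log2 scale in the MGE list, the order was kept in 315 (68.9%, 64.5 to 73.1%). The log2 width ratios of the lists had a Pearson correlation of 0.29 and a Spearman correlation of 0.274 over 1344 pairs, given as a description since neighbouring pairs share peaks and libraries. Neighbouring shared peaks further apart gave much the same: the order was kept in 60.2% of 5117 untied pairs 5 to 50 kb apart and in 59.3% of 7793 pairs further apart. The interval for close neighbours includes both of these shares. The distance between midpoints differed between the lists by a median of 73.2 bp, a value that the required overlap of partners partly builds in.

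**Figure D3:**
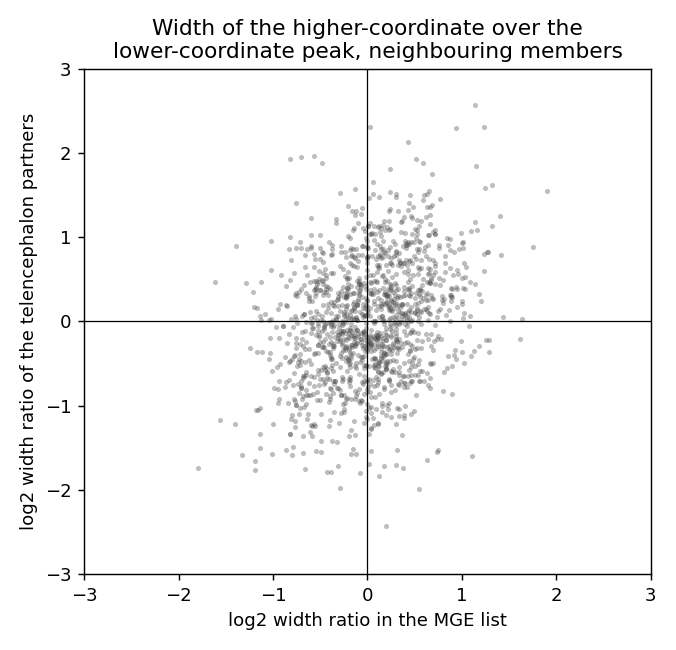
Width of the peak at the higher coordinate over that at the lower coordinate, as log2 ratios in the MGE list (horizontal axis) and among their telencephalon partners (vertical axis); each of 1344 points is a pair of neighbouring members. Points lie in all quadrants with a weak upward tilt (Pearson correlation 0.29), and 59.2% of untied pairs have the same sign in both lists.

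Unshared telencephalon peaks lay near members more often than near other shared peaks. An unshared telencephalon peak lay within 5 kb of 588 members (22%, 20.5 to 23.6%) and of 1921 other shared peaks (15.9%, 15.3 to 16.6%). Unshared MGE peaks lay within 5 kb of 95 members (3.56%, 2.89 to 4.33%) and 406 others (3.36%, 3.05 to 3.7%), and here the intervals overlap. The median width of unshared MGE peaks was 244 bp, the narrowest in that list. An unshared telencephalon peak lay between the members of 104 clusters (8.49%, 121 peaks), and an unshared MGE peak between those of 14 (1.14%, 15 peaks). Without the 4 runs the share with an unshared peak of either list within 5 kb was 24.2%, against 25% with them and 18.8% for other shared peaks.

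At the main window of 1 kb, members lay at gene ends slightly more often than other shared peaks, as given below. The difference was larger at 5 kb, an alternative window, and members did not lie more often inside genes. A position within 5 kb of an annotated gene end was found for 1481 members (55.4%, 53.5 to 57.3%) and 5400 others (44.7%, 43.8 to 45.6%). The median number of protein-coding genes within 50 kb was 2 in both groups. Only 191 members (7.15%, 6.2 to 8.19%) had no protein-coding gene within 50 kb, against 1373 others (11.4%, 10.8 to 12%). At 1 kb the difference was small. Midpoints within 1 kb of a gene end numbered 544 of members (20.4%, 18.9 to 21.9%) and 2215 of others (18.3%, 17.7 to 19.1%), a difference of 2.02 percentage points (0.341 to 3.69). The size of this difference depended on the settings, and its interval included 0 under 5 of them. It was 1.86 points (-0.534 to 4.25) with 2 kb between midpoints, 0.639 points (-0.761 to 2.04) with a window of 500 bp, 0.969 (-1.65 to 3.59) among the wider 50% of each list, 0.97 (-0.467 to 2.41) with protein-coding genes and 1.31 (-0.555 to 3.18) where partners had to overlap by at least 50%. Elsewhere inside genes lay 1165 members (43.6%, 41.7 to 45.5%) and 46.7% of others (45.8 to 47.6%). Between genes lay 962 members (36%, 34.2 to 37.9%) and 34.9% of others (34.1 to 35.8%). For comparison, 5.69% of the 10146 unshared MGE peaks were within 1 kb of a gene end. Their median width was 244 bp, the narrowest in the MGE list, and the part of width in this share was not tested.

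**Figure D4:**
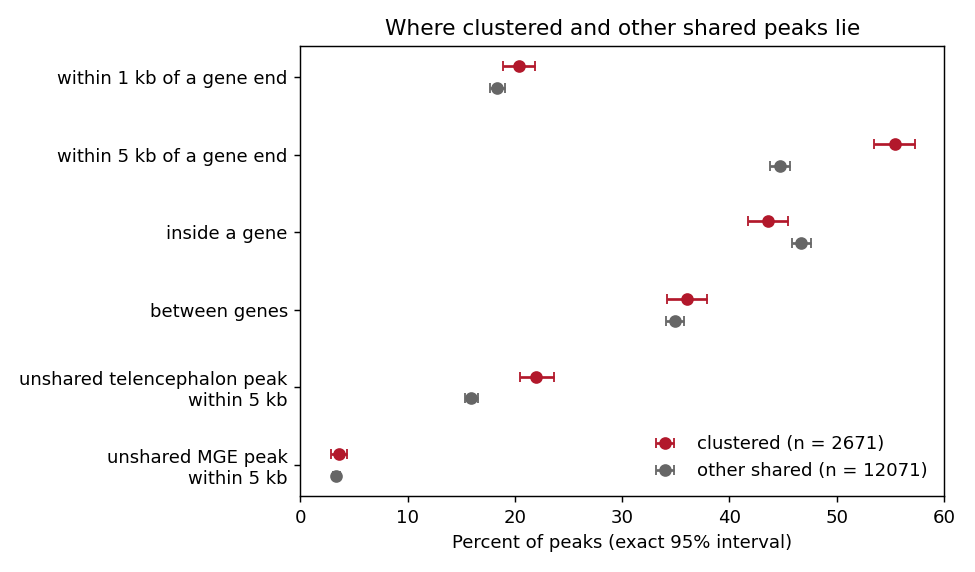
Percent of clustered (red, n = 2671) and other shared (grey, n = 12071) peaks at gene ends, inside genes, between genes and near unshared peaks; bars are exact 95% intervals of counting error. At the main window of 1 kb from a gene end the groups differ little (20.4 and 18.3%). They stand apart at the alternative window of 5 kb (55.4 and 44.7%) and for unshared telencephalon peaks within 5 kb (22 and 15.9%). For unshared MGE peaks they nearly coincide (3.56 and 3.36%).

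Clusters most often stayed within 1 kind of location. All members lay inside genes, away from the ends, in 413 clusters (33.7%), between genes in 344 (28.1%) and at gene ends in 80 (6.53%). The most frequent mixture, a gene end with a position inside a gene, was found in 211 (17.2%). A single protein-coding gene contained 452 clusters whole (36.9%). Members of the same cluster lay within 1 kb of both ends of 14 protein-coding genes, all short, among them Aurkaip1, Pop7, Gng8, Sertad1, Kcnj11, Rex1bd, Misp3, Madcam1, Hbq1b, Rpl26, Sox15, Mrm1 and Rpl38. Hbq1b, a globin gene of the alpha cluster, is 949 bp long, and the peak at its start (chr11:32286702-32287193) holds the core printed for it 7 bp from its midpoint. The longest of these genes was Mrm1 with 6455 bp.

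Genes with the most members inside them were long, with some exceptions; they were picked after their values were seen. Ksr2, a scaffold of the Ras-MAPK pathway 353995 bp long, held 7 members, and Frmd4b (330791 bp) and Msrb3 (117912 bp), a methionine sulfoxide reductase gene, held 5 each. With 4 each, Trp53i11 (14409 bp), Tmprss9 (28379 bp) and Dgkz (43622 bp), a diacylglycerol kinase gene, were short for that number, whereas Pde4d, a cAMP phosphodiesterase gene, spans 1301793 bp.

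The longest run lay at the start of chromosome 9 (chr9:3000140-3038206), where 36 members over 38067 bp were 478 to 2318 bp apart, with a median of 1032 bp. Their MGE widths ranged from 260 to 992 bp (median 462), and they overlapped 44 telencephalon peaks of 150 to 891 bp (median 339). From the middle of the run, the nearest gene of any kind, the microRNA gene Mir101c, was 19496 bp away and the nearest protein-coding gene, Alkbh8, 316058 bp. The last member (chr9:3037831-3038206) lay 651 bp from Mir101c. Runs of 4 members also lay away from genes, at chr14:19415683-19419583, 12541 bp from the pseudogene Gm9637, and at chr2:98662395-98667342, 37730 bp from the noncoding RNA gene Gm33780. The run on chromosome 14 included the widest of all members, 1348 bp (chr14:19416771-19418118), which overlapped telencephalon peaks of 1038 and 246 bp. The run on chromosome 2 had MGE peaks of 568, 394, 371 and 940 bp. No repeat or mappability annotation was used here, the input libraries are not analysed here, and the part of unequal read placement in these 3 runs was not tested.

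The second longest run followed a gene array. In the interferon zeta genes, which encode type I interferons of the limitin kind, 12 members at chr4:88773608-88806419 were 2748 to 3012 bp apart (median 2926). MGE widths were 402 to 672 bp (median 576) and those of the 12 partners 521 to 881 bp (median 648), all above the medians of clustered peaks. Each member lay within 1 kb of a gene end: at Gm13290, Gm13289, Gm13272, Ifnz, Gm13276, Gm13277, Gm13278, Gm13275, Gm13279, Gm13285, Gm13287 and Gm13288. No unshared peak of either list lay within 5 kb of this run. Another run of 3 at chr4:88757582-88763973, 2940 to 2950 bp apart, covered Gm13286 and Gm13283. Together they held 15 members over 48.8 kb, and 15 of the 16 annotated genes had a member within 1 kb of an end.

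Bases were read under 8 of the 15 members, and these were copies of each other. In 8 promoter windows covered by members, each had a pair of core matches on the strand opposite to the gene, 100 to 194 bp from the peak midpoint. Over 107 bases aligned on the first match, 15 of the 28 pairs of windows were identical. Pairs with Gm13286 had 72.9 to 74.8% of positions alike, and all others at least 98.1%. Positions were compared without gaps, so an inserted or deleted stretch lowers the share for all bases after it. The 3 versions printed above are alike in both capital stretches. Reads from identical copies cannot be told apart, so the number of copies that are bound was not measured, and the members of the array are not independent sites.

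**Figure D5:**
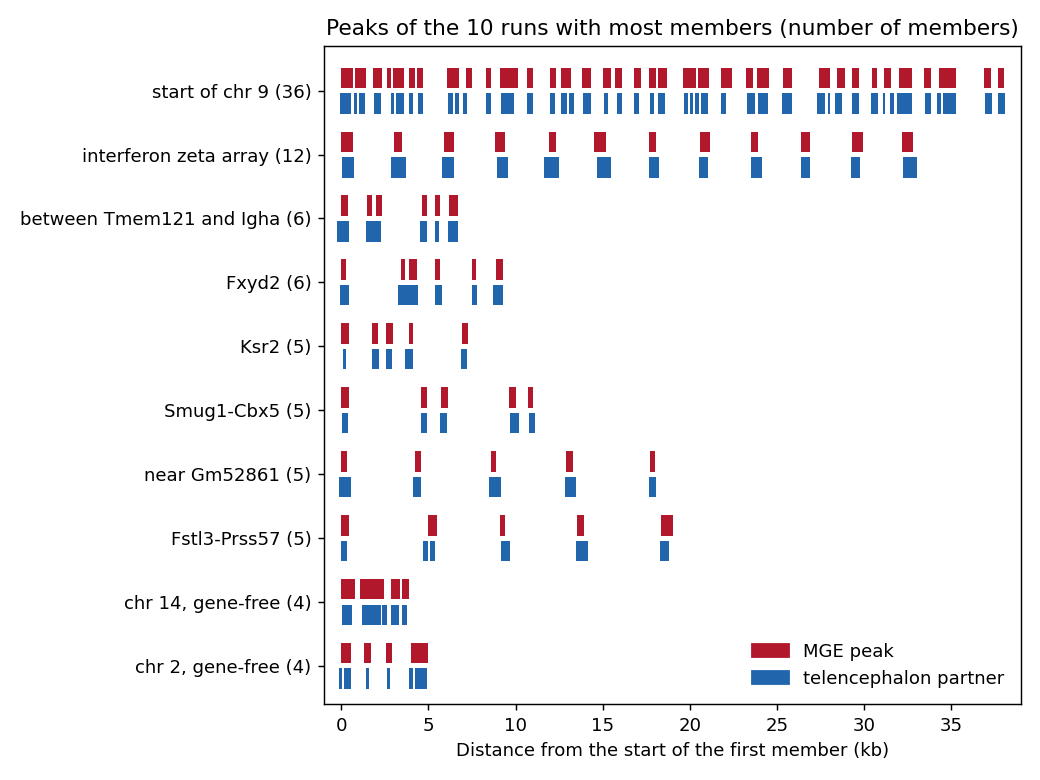
Peaks of the 10 clusters with most members (number of members in brackets), drawn to scale by distance from the start of the first member in kb, with MGE peaks in red above their telencephalon partners in blue. The interferon zeta array and the run near Gm52861 are evenly spaced, at medians of 2926 and 4340 bp, whereas the run at Fxyd2 is uneven, with steps of 544 to 3425 bp.

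Other large runs lay between genes, beside a gene or inside one. Between Tmem121 and the immunoglobulin heavy chain gene Igha, 6 members lay at chr12:113215924-113222604, in the stretch known for an array of CTCF sites beyond the end of the antibody heavy chain locus. MGE widths there were 384, 247, 339, 296, 328 and 478 bp, and the 5 partners were 655, 903, 387, 251 and 551 bp wide, the partner of 903 bp being common to both members of 247 and 339 bp. Distances between neighbours ranged from 572 to 2612 bp. From the middle of the run the nearest gene of any kind, the small nuclear RNA gene Gm25622, was 5012 bp away. The nearest protein-coding gene, Tmem121, was 29741 bp away.

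At Fxyd2, which encodes a subunit associated with the sodium pump, 6 members ran from inside the gene to the noncoding RNA gene 4833428L15Rik (chr9:45408439-45417690), with MGE widths of 258, 246, 451, 292, 244 and 381 bp. The members of 246 and 451 bp again had a common partner, of 1152 bp. Inside Ksr2, 5 members at chr5:117502627-117509868 were 417, 300, 414, 244 and 304 bp wide, with partners of 225, 367, 369, 458 and 367 bp. The widest and the narrowest MGE peaks there had the narrowest and the widest partner. Between Smug1, a uracil-DNA glycosylase gene, and Cbx5, which encodes heterochromatin protein HP1 alpha, 5 members at chr15:103172481-103183499 were 414, 318, 413, 443 and 283 bp wide, with partners of 359, 351, 359, 541 and 349 bp. Here the widest MGE peak had the widest partner and the narrowest had the narrowest.

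Runs of 5 with wide, even steps completed the list. Near the noncoding RNA gene Gm52861 5 members at chr6:47740095-47758130 were 4245 to 4804 bp apart (median 4340), with MGE widths of 287 to 424 bp and partners of 396 to 688 bp. From Fstl3, which encodes an activin-binding protein, through Prss57, a serine protease gene, to Palm, 5 members at chr10:79774854-79793892 were 4028 to 4996 bp apart. The member at Palm was the widest, with 690 bp (partner 497 bp), and holds the core printed for it 11 bp from its midpoint. These runs depend on the limit: at 4 kb or less between midpoints neither would exist.

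Clustered peaks were then counted at genes of the forebrain and of CTCF biology. Of 20665 protein-coding genes on chromosomes 1 to 19, 1399 had at least 1 clustered peak in the gene or within 10 kb (6.77%) and 1258 had at least 2 (6.09%), and 201 had 3 or more. Among 34 genes of the MGE and interneuron lineage, 4 had at least 2 (11.8%, 3.3 to 27.5%): Gad1, Sst, Gli1 and Cux2. The interval includes the background of 6.09%. At least 1 shared peak, clustered or not, was found at 17 of the 34. The share of all protein-coding genes with any shared peak is not given here, so such counts cannot be read as high or low.

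Gad1 encodes an enzyme of GABA synthesis. Its members (chr2:70558178-70558483 and chr2:70561126-70561387) were 306 and 262 bp wide in the MGE list and 259 and 315 bp in the telencephalon list. The midpoint of the first lay 2973 bp from Gad1, inside another annotated gene. The second spans an annotated end of Gad1, with its midpoint 47 bp away. Gli1, which carries the Sonic hedgehog signal into the nucleus, had members of 374 bp inside the gene (chr10:127338843-127339216) and 501 bp 898 bp outside it (chr10:127342228-127342728), with partners of 525 and 532 bp. At Sst, which encodes somatostatin, members of 334 and 323 bp (chr16:23898274-23898607 and chr16:23898894-23899216) overlapped the same telencephalon peak of 927 bp, so the telencephalon list had 1 site there. Cux2, a homeobox gene of upper cortical layers and some interneurons, had a pair inside the gene (chr5:121943427-121943733 and chr5:121945794-121946153) and a pair 7497 and 9158 bp beyond it (chr5:122057681-122058145 and chr5:122059353-122059794). The widths at these genes differed in no common direction between the tissues.

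Neuronal adhesion and synapse genes had clustered peaks at 7 of 28 (25%, 10.7 to 44.9%), with at least 2 at 6 (21.4%, 8.3 to 41%): Nrxn2, Cntn2, Cntnap2, Shank2, Lsamp and Ntm. Many of these genes are long, the intervals treat genes as independent, and the part of gene length was not tested. A shared peak of any kind was found at 23 of the 28, again a count without a background. Lsamp, a surface protein of limbic neurons, held 3 members of 467, 521 and 468 bp (chr16:42164956-42165422, chr16:42169653-42170173 and chr16:42172413-42172880), with partners of 480, 502 and 388 bp. Cntnap2, a contactin-associated protein gene, held members of 246 and 452 bp (chr6:47188241-47188486 and chr6:47191231-47191682), with partners of 303 and 305 bp. Ncam1, which encodes a neural cell adhesion molecule, had 1 member, 8027 bp from the gene.

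Axon guidance and migration genes had at least 2 clustered peaks at 3 of 29 (10.3%, 2.19 to 27.4%): Robo1, a Slit receptor gene, Nrp2, a semaphorin receptor gene, and Sema3f, which encodes a ligand of Nrp2. Sema3f had 3 members 3146 to 5328 bp from the gene (chr9:107675983-107676360, chr9:107677357-107677803 and chr9:107678118-107678589), of 378, 447 and 472 bp, with partners of 329, 704 and 705 bp. All 3 midpoints lay inside another annotated gene. Among 30 dorsal and projection neuron genes only Cux1 had 2 (3.33%, 0.0844 to 17.2%). A shared peak of any kind was found at 18, again a count without a background. Among 26 progenitor and Notch genes Nfix had 3 members within 10 kb and Sox2 had 1, 9039 bp from Sox2 and inside another annotated gene.

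Imprinted genes had at least 2 clustered peaks at 3 of 35 (8.57%, 1.8 to 23.1%), and H13 and Mcts2 counted the same pair (chr2:152693248-152693660 and chr2:152696713-152697138), since Mcts2 lies within H13. Beside Cdkn1c, which encodes a cell cycle inhibitor, 3 members lay 3095, 5451 and 9142 bp from the gene (chr7:143463928-143464381, chr7:143466327-143466694 and chr7:143470024-143470379). They were 454, 368 and 356 bp wide, with partners of 872, 377 and 346 bp, and the middle member holds the exact core match printed for Gm33663. A shared peak of any kind was found at 14 of 22 genes of cohesin and CTCF partners and at 27 of 39 Hox genes. These counts have no comparison over all genes and cannot be read as high or low. No clustered peak was found at either list (upper limits of 15.4% and 9.03%). Both upper limits lie above the background.

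The share was highest for the clustered protocadherins, but it rested on 1 cluster. Of 57 such genes 17 counted at least 2 members and 18 at least 1 (31.6%), and every one of them counted the pair at chr18:37751394-37751670 and chr18:37755566-37755809, or 1 of its peaks, because the Pcdhg genes overlap along the locus. These peaks were 277 and 244 bp wide in the MGE list and 218 and 203 bp in the telencephalon list. Ribosomal protein genes, a list with no particular role in the forebrain, had at least 1 at 8 of 81 (9.88%, 4.36 to 18.5%) and at least 2 at 6 (7.41%, 2.77 to 15.4%), among them Rpl3, Rpl13, Rpl26, Rpl36 and Rpl38. Rpl26 had members of 342 and 638 bp at its ends (chr11:68901295-68901636 and chr11:68904730-68905367), with partners of 505 and 659 bp. At Rpl38 the widest member, 544 bp with a partner of 809 bp (chr11:114668080-114668623), holds the core printed for it 113 bp from its midpoint. Except for the protocadherins and for the adhesion and synapse genes, whose intervals lay above the background, each list's interval included it.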

How the data were processed

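CTCF ChIP-seq and input libraries of E13.5 telencephalon and MGE were sequenced by the authors, with 1 of each per tissue. Inputs are not analysed here. The deposited lists give each peak's chromosome, start and end, per the file headers and values, with no score, summit or fold. Tools named in the submitters' processing notes are Bowtie2 2.3.2 and MACS2 2.1.1.20160309, with build mm10. For the calling threshold, the control and any filter, a statement is not given in the sources used here. The telencephalon track is named with e14 and p001 and the MGE track with p01, per the file headers, and what these mean is not explained. Depth per sample is unknown.

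The rule for members, the gene lists and the alternatives were chosen with earlier results of these data known. Named sites were the 10 clusters with most members, the 10 closest pairs with different partners, the 5 clusters of exactly 2 members with the largest summed MGE width, clustered peaks at genes of the fixed lists and the 3 pairs on each side of the limit. Starts were converted to 1-based positions. Distances of a peak to a gene run from the midpoint of the MGE peak, and those of a run from its middle. Overlaps, distances and intervals were computed with Python 3.11.15, pandas 2.3.3, numpy 2.4.6 and scipy 1.17.1, figures were drawn with matplotlib 3.10.9, and the steps were tested on simulated data. Intervals of differences use the normal approximation. Genes came from a RefSeq table on GRCm38.p6, whose starts and ends were used without exons. The planned search for the CTCF core was limited to RefSeq promoter windows, with at least 100 bases of a peak in a window and at most 1 mismatch. Alternatives changed the distance, the overlap, the width filter, the gene end window, the core and the unshared distance. Alternatives that left out 4 runs, or the core matches of the interferon zeta array, were chosen after seeing the data. Results for 1 gene are not reported here.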

Additional observations from a re-analysis of the deposited data

How the results depend on the processing

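Across 19 alternatives, 59 of 97 recomputed values stayed within their interval (or, for counts, near the reported count), and 38 moved further. No difference whose interval was clear of 0 changed sign, but the core-match difference between clustered and other shared peaks, 6.58 points with an interval that included 0, was -0.676 points with 2 kb between midpoints and -2.97 within 200 bp around the midpoint. With 2 kb between midpoints there were 1180 clustered peaks (8%) and the telencephalon median of other shared peaks was 346 bp. With 10 kb there were 4343 (29.5%). An overlap of at least 50% gave a clustered share of 15.6% and MGE medians of 362 and 348 bp for clustered and other shared peaks. Distances between facing edges gave 19.2%. The wider 50% of each list gave 1083 peaks (12.9%) and 20.6% of other shared peaks at gene ends. Without MGE peaks of the narrowest width the clustered share was 17.1% and the medians were 368 and 355 bp (MGE) and 389 and 350 bp (telencephalon). Gene end shares were 12.9% and 12.3% with a window of 500 bp, 55.4% and 44.7% (10.7 points apart) with 5 kb, and 13.8% and 12.8% with protein-coding genes. Core shares were 14.6% and 12.3% without a mismatch and 65.6% and 63.2% with the 7-letter core. Within 200 bp around the midpoint 50.5% of other shared peaks held the core, 2.97 points more than of clustered peaks (interval of the difference -16.7 to 10.8). Unshared peaks lay within 2 kb of 12.5% and 9.57% (2.97 points) and within 10 kb of 39.4% and 30.9% (8.49 points). Limits, windows and filters change these values by their construction, and other causes were not tested.

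No paired analysis was possible because the labels give 1 CTCF library per tissue. Depth is unknown, so a peak missing from a list may lie below that list's calling limit. Whether the clustered share depends on that limit was not tested. Leaving out the 4 runs on chromosomes 2, 4, 9 and 14 gave 2615 clustered peaks and moved the MGE median of clusters of 4 or more from 402 to 365 bp, while the other values recomputed stayed within their intervals. Without the core matches of the interferon zeta array, the share of matches on the strand of the gene moved from 55.7% to 68.1%. Sequence outside promoter windows was not analysed here.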
